A study of Mus musculus with 6 samples.

Results

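Pancreatic enzyme and pancreas factor genes were followed in the embryonic midgut of *Id2*-/- and *Id2*+/+ mice. The set holds 9 genes chosen by symbol, namely *Cpa1*, *Ctrb1*, *Spink1*, *Clps*, *Pnlip*, *Pnliprp1*, *Pnliprp2*, *Cel* and *Pdx1*, and every probe that the platform annotation names with one of them was taken. This gave 1 probe each for 8 of the 9 genes, of 13837 genes named on the arrays, while no probe carries the name *Pnlip*, the pancreatic lipase itself, which was not analysed here. RNA came from the distal portion of the midgut at E13.5, from 3 samples labelled *Id2* knockout and 3 labelled *Id2* wild type, described as littermates, with 1 single-color Applied Biosystems array per sample. The study kept its mutants, which carry the null allele in every cell, on an inbred or a mixed background, and which of these the arrays used is not stated. How many embryos make up a sample is not stated, so errors and p-values cover only how these samples vary, which may be technical. *Id2* itself was not analysed here, and the genotypes are those of the labels.

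The exocrine pancreas secretes digestive enzymes from acinar cells, most of them as inactive precursors. Carboxypeptidases and chymotrypsins cut dietary protein, lipases release fatty acids with the help of colipase, and *Spink1* encodes an inhibitor that blocks prematurely active trypsin. The pancreas buds from the endoderm where foregut meets midgut, in a region marked by the homeobox factor Pdx1, and not from the distal midgut. Acinar genes are switched on by PTF1, a complex of Ptf1a with an E protein and an Rbpj-type factor, which reads an E-box (CANNTG) next to a TTTCCC element. Id proteins such as Id2 have no DNA-binding domain and bind E proteins, which keeps those from E-boxes.

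Because 3 of the enzyme genes shared the same high arrays and a lipase-related gene next to one of them did not, the promoter windows of these 4 are shown. Windows run from 250 bases before to 50 bases after the RefSeq start, 5′ to 3′ on the gene's strand in GRCm38.p6, with E-boxes CANNTG and TTTCCC (or its reverse GGGAAA) in capitals. The positions are chr6:30638968-30639267 on the plus strand for *Cpa1*, chr8:111690961-111691260 on the minus strand for *Ctrb1*, chr19:58728637-58728936 on the plus strand for *Pnliprp1* and chr19:58759473-58759772 on the plus strand for *Pnliprp2*.
Cpa1: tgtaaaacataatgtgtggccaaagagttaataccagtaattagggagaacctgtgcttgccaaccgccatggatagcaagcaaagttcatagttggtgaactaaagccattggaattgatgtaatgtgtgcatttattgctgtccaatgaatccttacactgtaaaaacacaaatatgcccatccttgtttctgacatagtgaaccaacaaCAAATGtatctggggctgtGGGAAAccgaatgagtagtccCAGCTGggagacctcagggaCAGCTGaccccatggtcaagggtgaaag
Ctrb1: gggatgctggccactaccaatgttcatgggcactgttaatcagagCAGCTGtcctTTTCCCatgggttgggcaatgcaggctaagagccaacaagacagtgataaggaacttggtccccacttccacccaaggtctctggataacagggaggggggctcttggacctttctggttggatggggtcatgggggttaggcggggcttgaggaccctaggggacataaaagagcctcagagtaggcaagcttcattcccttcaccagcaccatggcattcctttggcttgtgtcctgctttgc
Pnliprp1: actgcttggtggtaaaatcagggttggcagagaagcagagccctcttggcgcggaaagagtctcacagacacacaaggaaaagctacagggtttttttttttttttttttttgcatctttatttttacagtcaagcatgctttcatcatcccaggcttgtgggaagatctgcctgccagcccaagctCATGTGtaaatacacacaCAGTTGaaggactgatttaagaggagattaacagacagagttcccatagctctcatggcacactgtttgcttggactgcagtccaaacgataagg
Pnliprp2: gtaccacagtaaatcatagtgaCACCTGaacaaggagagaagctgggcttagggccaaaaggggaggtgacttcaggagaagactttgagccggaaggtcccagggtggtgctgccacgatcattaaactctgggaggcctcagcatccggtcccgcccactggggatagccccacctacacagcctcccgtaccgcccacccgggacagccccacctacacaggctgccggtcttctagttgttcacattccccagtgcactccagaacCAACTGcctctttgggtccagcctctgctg
The *Ctrb1* window holds CAGCTG and TTTCCC with 4 bases between them. The *Cpa1* window holds GGGAAA with CAAATG 13 bases to one side and CAGCTG 15 bases to the other, the second of these already past the start. The windows of *Pnliprp1* and *Pnliprp2* each hold 2 E-boxes and no TTTCCC on either strand. Of 32851 windows of this length in the RefSeq table, 72.3% hold CANNTG, 25.2% hold TTTCCC on either strand, 6.3% hold both at most 30 bases apart and 2.49% at most 10 bases apart. Only the letters were matched, on both strands, and CAGCTG by itself is in 16.3% of the windows. Of the 9 genes 7 have a window in the table, and the *Cel* window also holds both, 15 bases apart. A match describes letters in this window only.

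Signals are the authors' values relative to the median of each array, so that 1 is the array median, and differences are *Id2*-/- minus *Id2*+/+ on the log2 scale. A probe counts as above background at a signal-to-noise value of at least 3, which 13890 to 16539 of 33012 probes reached on the *Id2*-/- arrays and 14497 to 15830 on the *Id2*+/+ arrays. The arrays numbered 1 stood apart in both genotypes: across tested probes their r was 0.984 with each other, but only 0.909 to 0.931 with the remaining arrays. The tests covered the 12741 probes that had no flag on any array and cleared background throughout at least one genotype. Of the members, *Cpa1*, *Pnliprp1*, *Clps*, *Pnliprp2* and *Spink1* were tested, and all but *Spink1* qualified only through the *Id2*-/- arrays. For *Pnliprp1* this rested on a value of 3.02, and for *Cpa1* on 3.13, both on the *Id2*-/- array 3. Counts over the tested members therefore lean toward higher *Id2*-/- signals by construction. With this tissue mixture, fewer cells of a type and less RNA per cell cannot be told apart.

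*Cpa1*, which encodes the zymogen of carboxypeptidase A1, was high on 1 array of each genotype. Its signal was 1.32, 5.78 and 1.5 on the *Id2*-/- arrays 1, 2 and 3, against 16.2, 1.10 and 1.51 on the *Id2*+/+ arrays 1, 2 and 3. The *Id2*+/+ array 1 was thus the highest and the *Id2*-/- array 2 the next, and the other 4 lay close together in both genotypes. The probe cleared background on the 3 *Id2*-/- arrays and on 2 of the *Id2*+/+ arrays. The log2 mean was 1.17 ± 1.18 in *Id2*-/- and 1.58 ± 2.12 in *Id2*+/+ samples (SD, n = 3 each), a difference of -0.41 (standard error 1.06), which did not pass limma (adjusted p = 1.0). In pairs of same-numbered arrays the difference was -3.62, 2.40 and -0.01. Without the *Id2*+/+ array 1 the difference was 0.81, and with that array and the *Id2*-/- array 2 both left out it was 0.13 (standard error 0.28).

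*Ctrb1*, which encodes chymotrypsinogen B1, was above background on the same 2 arrays and on no other. Its signal was 0.153, 1.84 and 0.419 on the *Id2*-/- arrays 1 to 3, against 1.63, 0.361 and 0.446 on the *Id2*+/+ arrays 1 to 3. *Ctrb1* was not tested, since neither genotype had it above background on all arrays. *Pnliprp1*, which encodes a lipase-related protein of the pancreas with little known lipase activity, was also highest on these arrays. Its signal was 2.45, 4.31 and 1.34 on the *Id2*-/- arrays, against 4.50, 0.588 and 0.692 on the *Id2*+/+ arrays. In contrast to *Cpa1* and *Ctrb1*, it also lay above the remaining *Id2*+/+ arrays on the *Id2*-/- arrays 1 and 3, and the genotypes overlapped only through the *Id2*+/+ array 1. The difference of *Pnliprp1* was 0.98 (standard error 0.82; limma adjusted p = 1.0), with -0.88, 2.88 and 0.95 in the pairs. It was 1.92 without the *Id2*+/+ array 1, 0.57 without the *Id2*-/- array 2, 0.45 without the *Id2*+/+ array 2 and 0.57 without the *Id2*+/+ array 3. With the *Id2*+/+ array 1 and the *Id2*-/- array 2 both left out it was 1.51.

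**Figure D1:**
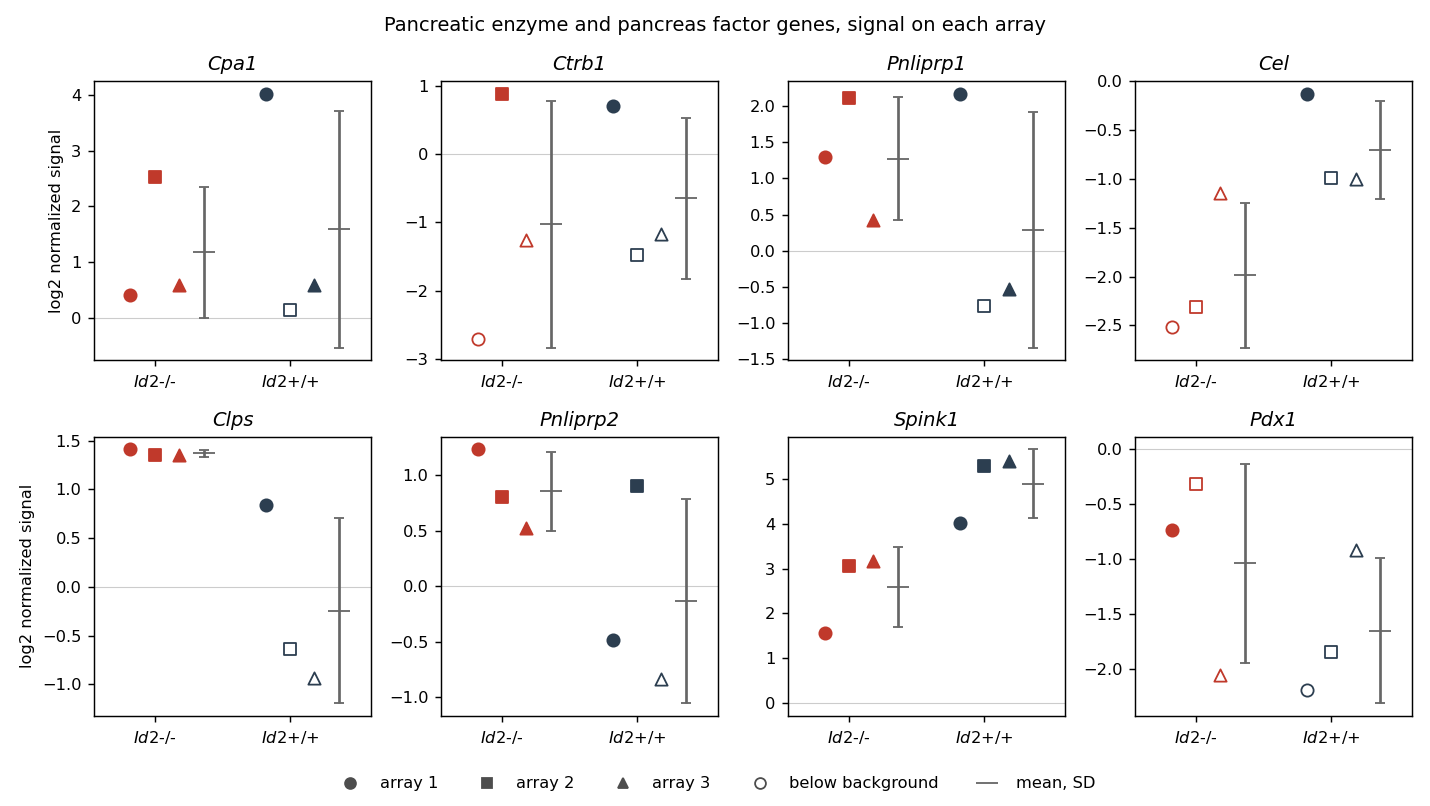
Log2 normalized signal (vertical axis, a scale of its own for each gene) of the 8 genes on the *Id2*-/- arrays (left, red) and the *Id2*+/+ arrays (right, dark), with circles, squares and triangles for arrays 1, 2 and 3, open symbols below background, and bars for the mean and SD. The *Id2*-/- array 2 and the *Id2*+/+ array 1 are the highest of their genotype for *Cpa1*, *Ctrb1* and *Pnliprp1*, while the 3 *Id2*-/- points of *Clps* lie together at a mean of 1.37.

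A search for probes of the same shape was made over all arrays, asking for the *Id2*-/- array 2 and the *Id2*+/+ array 1 as the highest, with the lower of them at least 2-fold above the other 4. Among tested probes only *Cpa1* itself met this, with a gap of 3.84-fold, and *Pnliprp1* did not. Among probes that were above background on both arrays but not tested, 9 met it. *Ctrb1* had the largest gap of these, 3.66-fold, followed by an unnamed probe at 2.84-fold. The other named ones were *Relt*, *Olfr583*, *Hoxd4* and *Egf*, with gaps of 2.03 to 2.44-fold, none of which is on the pancreas lists used here. By Pearson's r over the 6 arrays, the tested named probes most like *Cpa1* were *Fam180a* (0.925), *Klhl18* (0.888), *Tbc1d25* (0.88), *Ppp2r2b* (0.872) and *Sgtb* (0.863). In each of the 5 the gap was at most 1.23-fold, against 3.84-fold for *Cpa1*.

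*Clps*, which encodes colipase, the cofactor that anchors pancreatic lipase to fat droplets, had nearly the same signal on all *Id2*-/- arrays and a lower one on each *Id2*+/+ array. Its signal was 2.66, 2.56 and 2.55 on the *Id2*-/- arrays 1 to 3, against 1.79, 0.643 and 0.523 on the *Id2*+/+ arrays 1 to 3. The genotypes did not overlap, and of the *Id2*+/+ arrays only array 1 was above background, so the 2 lower values are signals below it. The log2 mean was 1.37 ± 0.03 in *Id2*-/- and -0.24 ± 0.95 in *Id2*+/+ samples (SD, n = 3 each). The difference of 1.62 (standard error 0.46) did not pass limma (adjusted p = 1.0), and it was 0.57, 1.99 and 2.28 in the pairs. With the 2 arrays that were highest for *Cpa1* left out the difference was 2.17 (adjusted p = 0.624 in limma). This rise was fixed by the values, since the *Id2*+/+ array 1 was the highest *Id2*+/+ array for *Clps* as well. The *Id2*-/- array 2 was not above the other *Id2*-/- arrays for *Clps*, unlike for *Cpa1*.

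*Pnliprp2*, which encodes a lipase-related enzyme that also acts on galactolipids and lies beside *Pnliprp1* in the genome, followed neither pattern. Its signal was 2.35, 1.75 and 1.44 on the *Id2*-/- arrays, against 0.716, 1.87 and 0.561 on the *Id2*+/+ arrays. The *Id2*+/+ array 2 lay within the *Id2*-/- range, and the *Id2*+/+ array 1, the highest for *Cpa1*, was among the low ones here. The difference was 0.99 (standard error 0.47; limma adjusted p = 1.0), with 1.72, -0.10 and 1.36 in the pairs. It was 1.52 without the *Id2*+/+ array 2 and 0.65 without the *Id2*+/+ array 3, and 0.63 without both arrays numbered 1. *Cel*, which encodes bile salt-stimulated carboxyl ester lipase, was above background only on the *Id2*+/+ array 1. Its signal was 0.175, 0.201 and 0.453 on the *Id2*-/- arrays, all below background, against 0.916, 0.504 and 0.499 on the *Id2*+/+ arrays, and it was not tested.

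*Pdx1*, the homeobox factor of the pancreatic bud and proximal duodenum, was near or below background throughout. Its signal was 0.600, 0.802 and 0.240 on the *Id2*-/- arrays, against 0.218, 0.278 and 0.529 on the *Id2*+/+ arrays. Only the *Id2*-/- array 1 reached a signal-to-noise value of 3, at 3.32, although the *Id2*-/- array 2 had the higher signal. The arrays with high *Cpa1* had signal-to-noise values of 0.33 (*Id2*-/- array 2) and 1.04 (*Id2*+/+ array 1) for *Pdx1*. *Pdx1* was not tested.

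**Figure D2:**
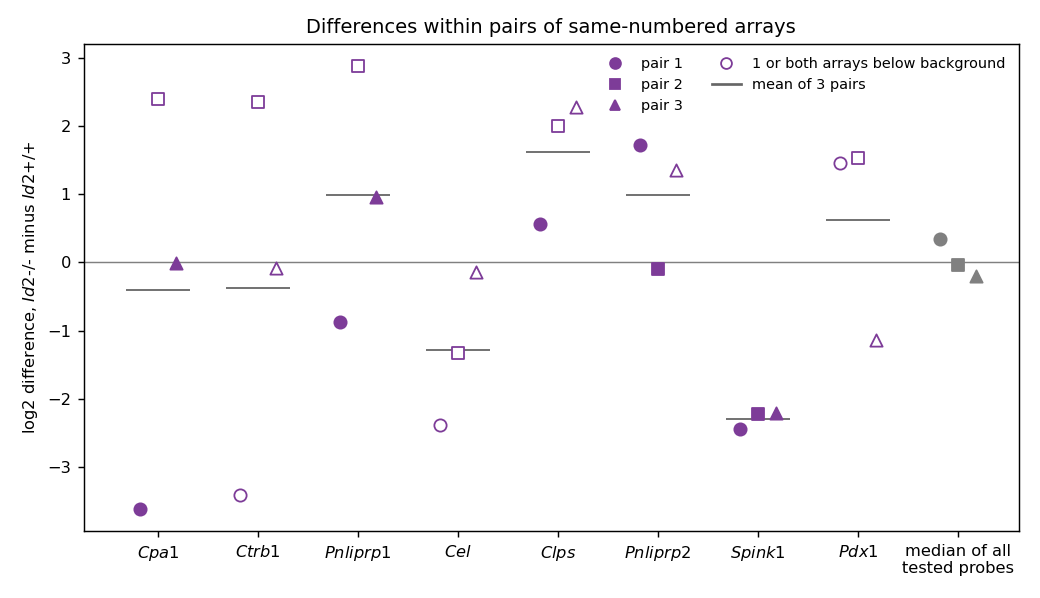
Log2 difference of *Id2*-/- minus *Id2*+/+ (vertical axis) within each pair of same-numbered arrays for the 8 genes, with the median over all tested probes at the right; circles, squares and triangles are pairs 1, 2 and 3, open symbols have an array below background, and bars are means of the 3 pairs. The pairs of *Cpa1* run between -3.62 and 2.40, whereas those of *Spink1* lie between -2.44 and -2.21.

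*Spink1*, the trypsin inhibitor gene named *Spink3* in older annotations, had lower signals on the *Id2*-/- arrays in every pair. In mouse embryos it is expressed in the intestinal endoderm as well as in the pancreas. Its signal was 2.97, 8.27 and 9.03 on the *Id2*-/- arrays 1 to 3, against 16.1, 38.7 and 41.7 on the *Id2*+/+ arrays 1 to 3. The genotypes did not overlap, all 6 arrays were above background, and in each genotype array 1 was the lowest. The log2 mean was 2.60 ± 0.89 in *Id2*-/- and 4.89 ± 0.77 in *Id2*+/+ samples (SD, n = 3 each), a difference of -2.29 (standard error 0.55; limma adjusted p = 1.0). The pairs differed by -2.44, -2.23 and -2.21. The study itself lists this gene among those it chose on these samples, so its direction here is not independent evidence. By qRT-PCR of E13.5 intestine, the study also reports a marked decrease of this gene, as *Spink3*, in *Id2*-/- embryos. The *Id2*+/+ array 1, highest for *Cpa1*, was the lowest *Id2*+/+ array for *Spink1*, so the order of the arrays was not shared.

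Epithelial genes varied between these arrays as well. All 12 tested pan-epithelial genes, such as *Epcam* and *Cdh1*, had negative differences between the genotype means, and none was called by limma with or without the block. Their median difference was 0.46, -0.47 and -0.78 in pairs 1, 2 and 3, and over 6 genes of the intestinal epithelium it was 0.24, -0.85 and -0.92. The median of all tested probes was 0.35, -0.04 and -0.19 in the same pairs. The summed signal of the pan-epithelial genes ranged from 717 to 844 on the *Id2*-/- arrays and from 501 to 1410 on the *Id2*+/+ arrays. That of the intestinal genes ranged from 170 to 242 on the *Id2*-/- arrays and from 116 to 467 on the *Id2*+/+ arrays. *Spink1* was lower in pair 1 too, where both lists had positive medians. Of 8 intestinal epithelial genes with a probe 7 were above background on at least 1 array, *Cdx2*, *Vil1* and *Cdh17* among the tested, and *Cdx1* was above background on none. The part of the epithelium in the difference of *Spink1* was not tested.

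Read against all probes, the calls depended on the fit. Limma without a block called 0 of the 12741 probes higher (0%) and 0 lower (0%), with 234 at an unadjusted p under 0.05, and 2 of the 5 tested members, *Clps* and *Spink1*, were among those 234. A fit with the array number as a block was added, since deviations from the genotype mean correlated between arrays of equal number, clearly for the arrays numbered 1 (0.838), but for number 3 (0.579) no more than between the *Id2*-/- array 3 and the *Id2*+/+ array 2 (0.638). With this replicate block limma called 135 probes higher (1.06%) and 143 lower (1.12%). Of the members *Clps* (adjusted p = 1.12e-06), *Pnliprp2* (adjusted p = 0.0187) and *Pnliprp1* (adjusted p = 0.021) were called higher and *Spink1* (adjusted p = 1.43e-13) lower by limma, but *Cpa1* was not (adjusted p = 1.0). In this fit every probe shares a standard error of 0.275, which for *Pnliprp1* stands beside 0.82 without the block. *Clps*, *Pnliprp1* and *Pnliprp2* were tested only through the *Id2*-/- arrays, where they were high, so their p-values carry that selection in every fit. With the block and quantile normalization together 0 were higher (0%) and 0 lower (0%), with 939 at an unadjusted p under 0.05 in limma, and the adjusted p was 0.576 for *Clps*, 0.692 for *Pnliprp2*, 0.827 for *Pnliprp1* and 0.248 for *Spink1*. With 3 arrays a side, the smallest two-sided p of an exact permutation test is 0.1.

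Between the genotype means 89 tested probes (0.699%) were higher by 2-fold or more and 109 (0.856%) lower. Of the members *Clps* was higher by this rule and *Spink1* lower, with *Pnliprp2* at 1.99-fold and *Pnliprp1* at 1.98-fold just short of it. These folds include *Id2*+/+ signals below background, for *Pnliprp2* on array 3 and for *Pnliprp1* on array 2, and those of *Clps* on arrays 2 and 3. Genotypes did not overlap for 348 probes with all *Id2*-/- arrays above (2.73%) and for 164 with all below (1.29%). *Clps* was among the first and *Spink1* among the second. The count of members at least 2-fold higher was 2 without the *Id2*-/- array 2, 3 without the *Id2*-/- array 3, 2 without the *Id2*+/+ array 1 and 2 without the *Id2*+/+ array 2. That of members at least 2-fold lower was 2 without the *Id2*-/- array 2 and 2 without the *Id2*+/+ array 2, *Cpa1* being the addition. Of all tested probes 1.05% and 0.879% were at least 2-fold lower in these settings. Without the *Id2*+/+ array 1 or 2, 2 members lay wholly above in place of 1, while the share of all tested probes that did so was 7.41% without array 1 and 5.05% without array 2. With one of these 4 arrays left out, 1.04% to 2.61% of all tested probes were at least 2-fold higher.

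**Figure D3:**
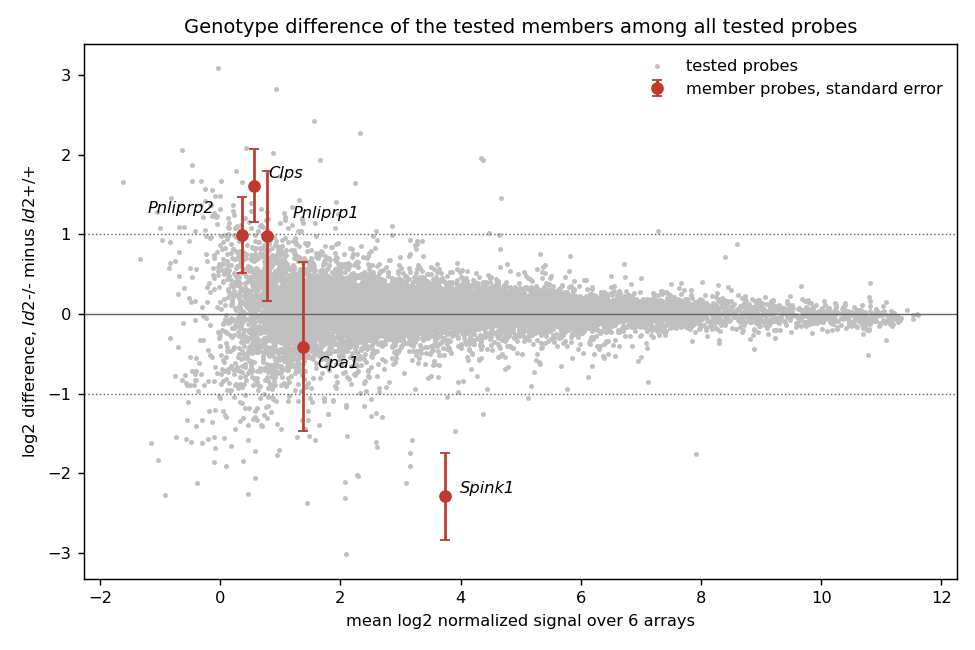
Log2 difference of *Id2*-/- minus *Id2*+/+ (vertical axis) against the mean log2 normalized signal over the 6 arrays (horizontal axis) for all tested probes (gray) and the 5 tested members (red, with the standard error of limma without the block); dotted lines mark 2-fold. *Spink1* lies at -2.29 and *Clps* at 1.62, and the error bar of *Cpa1* spans 0.

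Other products of acinar cells did not follow *Cpa1*. Of 28 listed, 20 had a probe, 5 of these were above background on no array (*Amy1*, *Prss1*, *Reg1*, *Reg3d* and *Cuzd1*), and only *Cela3b*, an elastase, and *Erp27*, a protein of the endoplasmic reticulum, were tested. The number above background was 9, 4 and 4 on the *Id2*-/- arrays 1 to 3, against 6, 3 and 6 on the *Id2*+/+ arrays 1 to 3. Thus the *Id2*-/- array 2 was not above its neighbors, and the *Id2*+/+ array 1 shared the top of its genotype. Among the members themselves 6, 6 and 5 of 8 probes were above background on the *Id2*-/- arrays, against 7, 2 and 3 on the *Id2*+/+ arrays. *Cela3b* differed by 0.34 (standard error 0.34) and *Erp27* by -0.01 (standard error 0.29), and limma called neither with or without the block. *Rnase1*, the pancreatic ribonuclease gene, had a signal of 0.232, 1.74 and 0.793 on the *Id2*-/- arrays, against 1.31, 0.960 and 1.48 on the *Id2*+/+ arrays. *Sycn*, which encodes syncollin of the zymogen granule, had 1.47, 0.344 and 0.846 on the *Id2*-/- arrays, against 2.24, 1.03 and 0.843 on the *Id2*+/+ arrays. So *Rnase1* was highest on the *Id2*-/- array 2 and *Sycn* on the *Id2*+/+ array 1. *Rnase1* was above background on both arrays with high *Cpa1*, with signal-to-noise values of 5.48 and 3.68, and on the *Id2*+/+ array 3, at 5.21. *Sycn* was above background on both arrays numbered 1 and on no other. Both genes were singled out after their values were seen.

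**Figure D4:**
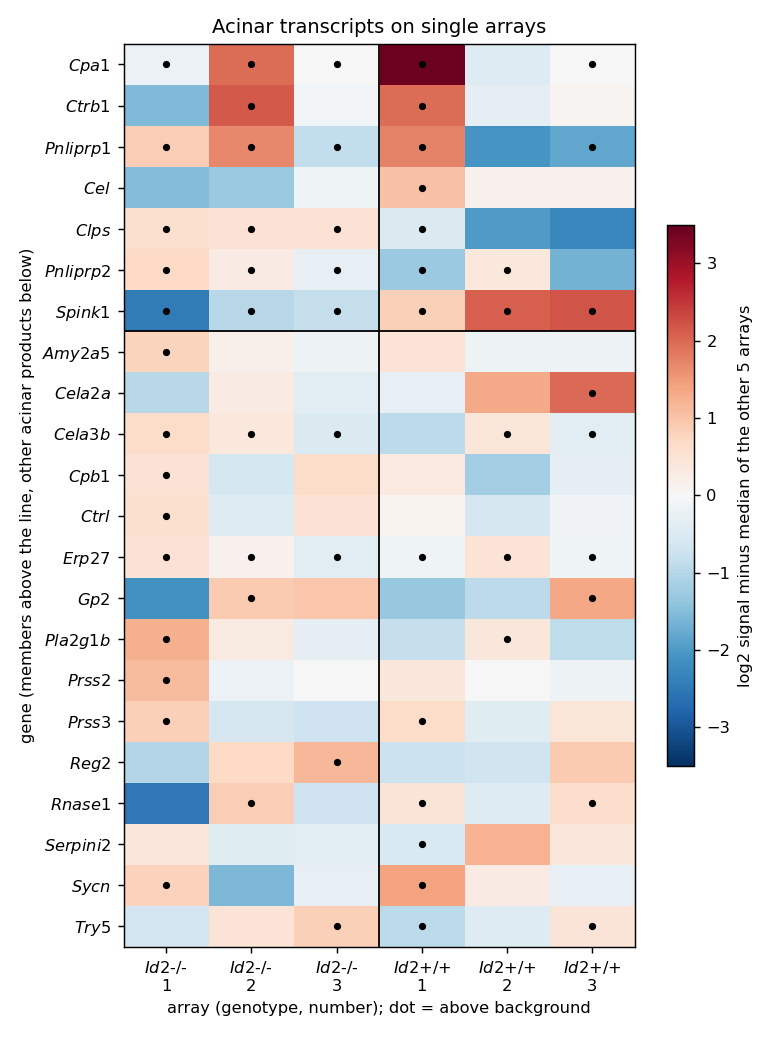
Log2 signal minus the median of the other 5 arrays (color) on each array (columns, *Id2*-/- left of the line, *Id2*+/+ right) for 7 members (above the line, *Pdx1* left out) and the 15 other acinar products above background on at least 1 array (below it), with a dot where the probe is above background. The excess of *Cpa1* is 3.43 on the *Id2*+/+ array 1 and 1.95 on the *Id2*-/- array 2, whereas below the line the largest excess on these arrays is 1.41 (*Sycn* on the *Id2*+/+ array 1).

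No tested transcription factor of the pancreas passed limma in any of the 3 fits. Of 24 listed transcription factors 20 had a probe and 10 were tested, with a median difference of 0.09, against 0.04 over all tested probes. Limma called 0 of the 10 with or without the block, and 0 had an unadjusted p under 0.05 without it. The smallest p-values were those of *Nr5a2*, a nuclear receptor of acinar cells and gut epithelium, at -0.86 (standard error 0.53), *Mnx1*, a homeobox factor of the early bud, at 0.73 (standard error 0.58), and *Rfx6*, an endocrine factor, at -0.39 (standard error 0.38). *Ptf1a*, the acinar factor of the PTF1 complex, was above background on the *Id2*-/- array 3 only, with a signal-to-noise value of 10.08, and lay below it on both arrays with high *Cpa1*. *Rbpjl*, the acinar Rbpj-type partner, differed by 0.24 (standard error 0.30), and *Bhlha15*, a factor of secretory cells, by -0.17 (standard error 0.35); both were singled out after their values were seen. *Nkx2-2*, an endocrine factor, stood out on the *Id2*+/+ array 1 alone, and *Sox9*, a progenitor factor, on both arrays numbered 1. *Gata4*, an endoderm factor of the pancreas and proximal gut, stood out on the *Id2*-/- array 1 and was above background on the *Id2*+/+ array 1 as well.

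Of 14 islet products 10 had a probe and 3 were tested, none of them a hormone gene. *Chgb* differed by -0.42 (standard error 0.31), *Scg5* by -0.13 (standard error 0.23) and *Chga* by 0.07 (standard error 0.25); the 3 encode granule proteins that enteroendocrine cells of the gut also make. Limma called 0 of the 3 with or without the block, 0 had an unadjusted p under 0.05 without it, and the median difference was -0.13. *Ins2*, an insulin gene, was above background on the *Id2*-/- array 3 only. *Pcsk1*, a prohormone convertase gene, was above background on the *Id2*-/- array 2 only, and the hormone genes *Ppy* and *Ghrl* on no array. *Pyy*, a peptide hormone gene of islets and gut, had a signal of 0.817, 0.610 and 0.346 on the *Id2*-/- arrays, against 2.33, 0.479 and 0.823 on the *Id2*+/+ arrays, and was above background on the *Id2*-/- array 1 and on the *Id2*+/+ arrays 1 and 3. It was thus highest on the *Id2*+/+ array 1, as *Cpa1* was, but not high on the *Id2*-/- array 2. *Sst*, the somatostatin gene, was above background on both arrays numbered 1 only. *Ins2*, *Ppy*, *Ghrl*, *Pyy* and *Sst* were singled out after their values were seen.

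Markers of neighboring organs were set beside the arrays with high *Cpa1*. Of 11 liver genes with a probe 6 were above background on no array, among them the fibrinogen genes *Fga*, *Fgb* and *Fgg*. The 4 tested liver genes had a summed signal of 48.0, 40.2 and 39.4 on the *Id2*-/- arrays 1 to 3, against 48.2, 78.5 and 75.4 on the *Id2*+/+ arrays 1 to 3. The number of liver genes above background was 4 or 5 on every array. *Onecut1*, the 1 tested gene of the proximal midgut list, had a signal of 1.54, 1.46 and 3.22 on the *Id2*-/- arrays, against 1.22, 2.95 and 1.08 on the *Id2*+/+ arrays. *Sox2*, the 1 tested gene of the stomach epithelium list, had 15.6, 9.996 and 11.9 on the *Id2*-/- arrays, against 10.2, 7.71 and 7.05 on the *Id2*+/+ arrays. Over 7 tested genes of the gut mesenchyme the median difference was 0.04, and their summed signal was lowest on array 1 in both genotypes. By these sums neither the *Id2*-/- array 2 nor the *Id2*+/+ array 1 was the highest for the 4 tested liver genes. *Alb*, the albumin gene, was not tested and was singled out after its values were seen. Its signal was 1.06, 1.21 and 0.730 on the *Id2*-/- arrays, against 0.745, 1.10 and 0.380 on the *Id2*+/+ arrays. It was thus highest on the *Id2*-/- array 2, and above background on the *Id2*-/- arrays 1 and 2 and the *Id2*+/+ array 2. Of the 3 proximal midgut genes with a probe, *Gata4*, *Onecut1* and *Onecut3*, 1 was above background on the *Id2*-/- array 2 and 3 on the *Id2*+/+ array 1, against 1 or 2 on the other arrays. Whether pancreatic tissue was carried into single samples was not tested.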

How the data were processed

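RNA was amplified for a single round and measured on Applied Biosystems mouse genome survey arrays, version 2.0. The deposited files give, per probe, a scanner intensity, a signal-to-noise score, a flag and an intensity that the authors normalized by the median; the constant equals the median of unflagged spots on each array. The sources used here do not say whether background was subtracted. The deposited series table holds the same intensity values. The methods leave out flags under 5000; here, the other way round, a flag of 5000 or more marked a bad spot. The test was limma (version 3.58.1, R 4.3.3) on log2 values, and p-values were adjusted by Benjamini-Hochberg over 12741 probes, with a threshold of 0.05. Gene names come from the platform annotation, updated through RefSeq. Where several probes name a listed gene, the tested one of highest mean stands for it. The fits were checked on simulated data.

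All members are named; from the other lists, the 3 tested genes with the smallest p, and genes at least 4-fold above the median of the other 5 arrays on 1 array; exceptions are stated beside the genes, and genes above background on no array are named for that. Members and lists were chosen with earlier results of these data known. Deviations of same-numbered arrays correlated at 0.838, 0.644 and 0.579, each over 0.1, and on that basis alone equal numbers were treated as pairs, since the labels state no pairing; *Id2*-/- array 3 correlated with *Id2*+/+ array 2 at 0.638, so the likeness of pair 3 was not particular to its number. Alternatives were the replicate block alone or with quantile normalization, quantile normalization alone, a stricter or no signal-to-noise filter, adding 50% of the array median before the log, the series table, a trended robust prior and leaving out each array. Leaving out both arrays numbered 1, or the 2 arrays highest for *Cpa1*, was chosen after seeing the data. The number of arrays limits precision. Figures were drawn with matplotlib 3.10.9.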

Additional observations from a re-analysis of the deposited data

How the results depend on the processing

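With the replicate block limma called 135 probes higher and 143 lower, and 3 and 1 members, in place of 0 each, and 0 of each under every other alternative. The members at least 2-fold higher numbered 2 with quantile normalization, 2 with the replicate block and quantile normalization, 0 with signal-to-noise 3 or more on all 6 arrays, which leaves *Spink1* alone tested, 3 without both arrays numbered 1 and 2 with the *Id2*+/+ array 1 and the *Id2*-/- array 2 left out. They numbered 1 to 3 when single arrays were left out, and those at least 2-fold lower 1 to 2. Of all tested probes, 0.785% were at least 2-fold higher with quantile normalization, with or without the block. That share was 1.3% without both arrays numbered 1 and 4.8% without the 2 arrays highest for *Cpa1*. With single arrays left out, 0.903% to 2.61% were at least 2-fold higher and 0.761% to 2.22% lower. Members lying wholly above numbered 0 with signal-to-noise 3 or more on all arrays, 1 to 2 when single arrays were left out, 2 without both arrays numbered 1, and 2 without the arrays highest for *Cpa1*, while the share of all tested probes lying wholly above, 2.73% with all arrays, was 4.78% to 7.41%, 10.7% and 11.4% with these arrays left out. Without the signal-to-noise filter 2 members were at least 2-fold lower and 2 wholly below, with *Cel* added. Of the 32189 probes in that setting, 2.35% were at least 2-fold lower and 2.41% wholly below. *Cel* was above background only on the *Id2*+/+ array 1. *Cpa1* turned positive, at 0.81 without the *Id2*+/+ array 1, 1.20 without both arrays numbered 1 and 0.13 without the 2 arrays highest for it, within -1.13 to 0.81 when single arrays were left out. The other 4 tested members kept their direction under every alternative that tested them. The difference lay between 1.15 and 2.17 for *Clps*, 0.45 and 1.92 for *Pnliprp1*, 0.63 and 1.52 for *Pnliprp2* and -2.96 and -1.78 for *Spink1*. The stricter signal-to-noise filter did not test *Clps*, *Pnliprp1* and *Pnliprp2*. In the main fit these 3 were tested only through the *Id2*-/- arrays, where they were high, so that selection favored their positive direction. The median of the islet products was 0.0681 without the signal-to-noise filter and -0.21 to -0.0243 when single arrays were left out, and that of the pancreas factors -0.0801 to 0.17. Signals near background limit *Ctrb1*, *Cel* and *Pdx1*.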
